A study of Mus musculus with 8 samples.

Results

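The interferon response genes examined here are 33 genes that are known to be switched on by interferon. They were chosen as a named set, and each was read from the transcript cluster of a mouse whole-transcript array that is annotated with that single symbol (the brightest one, where a gene had several). Of the 33, 32 were measured, out of 30738 genes in all, and Ifi44 is not analysed here. The 8 RNA samples came from primary mouse cultures that had been differentiated from radial glia, the progenitors of the ependymal cells that line the brain ventricles with motile cilia. By their titles and the treatment protocol, 4 samples received epidermal growth factor (EGF, 20 ng/ml) together with the differentiation medium (DMEM/F12, 2% FBS, penicillin and streptomycin), and 4 had that medium alone, all for 2 weeks. The source names disagree with the titles: those titled EGF carry MLN4924, a drug that blocks neddylation, and those titled untreated carry DMSO, a common solvent. "EGF" and "untreated" below mean the arrays so titled, and whether the agent was EGF or MLN4924 cannot be told from the labels. Replicates carry the numbers 1 to 4, and nothing states whether each was its own culture or animal. Each p-value is therefore set against a spread among samples that could be purely technical. Neither strain, age nor number of animals was stated for the groups.

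Interferons are secreted signals of viral infection. Type I interferons bind a receptor of the subunits IFNAR1 and IFNAR2, whose kinases JAK1 and TYK2 activate STAT2, which acts with IRF9 in a complex called ISGF3. ISGF3 binds a DNA sequence named the interferon-stimulated response element (ISRE), whereas interferon gamma acts mainly through the gamma-activated sequence (GAS). The induced proteins sense viral RNA, block entry, translation or budding of viruses, or damp the pathway. In brain tissue, astrocytes, ependymal cells and microglia are all known to respond to interferon, and several of these genes keep a low tonic expression without infection.

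The promoters are shown first, since the ISRE is the element through which type I interferon is known to act. RefSeq promoter windows of GRCm38.p6, each from 250 bases before to 50 bases after a transcript start, were at hand for 24 of the 32 measured genes (28 windows). The ISRE was searched as the letters GAAA, any 2 bases and GAAA again, on both strands and with overlapping matches allowed. It was found in 14 of the 24 genes (58.3%), beside 3.99% of the 27025 genes with a window. The GAS, searched as TTC, any 3 bases and GAA (which reads the same on both strands), was found in 7 of 24 (29.2%), beside 9.55%. A GAS match can share bases with an ISRE match. Windows of the genes with the largest changes follow, 5′ to 3′ on the gene's strand, with ISRE matches in capitals (runs where matches overlap). They lie at chr8:71537423-71537722 for Bst2, chr5:120907476-120907775 for Oas1a and chr2:62646206-62646505 for Ifih1, all on the minus strand, and at chr3:142559794-142560093 on the plus strand for Gbp3. Gbp3 has another window, at chr3:142560106-142560405, which held 0 ISRE matches and is not printed.
Bst2: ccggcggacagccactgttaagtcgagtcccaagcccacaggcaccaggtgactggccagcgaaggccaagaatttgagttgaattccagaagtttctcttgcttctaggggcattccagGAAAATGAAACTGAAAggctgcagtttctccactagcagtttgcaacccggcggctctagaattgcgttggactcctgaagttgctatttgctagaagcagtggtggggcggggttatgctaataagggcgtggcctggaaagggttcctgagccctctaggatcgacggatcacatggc
Oas1a: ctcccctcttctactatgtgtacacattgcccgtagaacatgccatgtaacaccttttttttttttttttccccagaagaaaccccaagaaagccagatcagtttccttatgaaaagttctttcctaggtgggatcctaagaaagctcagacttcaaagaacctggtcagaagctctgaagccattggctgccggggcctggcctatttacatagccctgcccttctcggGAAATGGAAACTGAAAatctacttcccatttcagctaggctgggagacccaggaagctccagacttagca
Ifih1: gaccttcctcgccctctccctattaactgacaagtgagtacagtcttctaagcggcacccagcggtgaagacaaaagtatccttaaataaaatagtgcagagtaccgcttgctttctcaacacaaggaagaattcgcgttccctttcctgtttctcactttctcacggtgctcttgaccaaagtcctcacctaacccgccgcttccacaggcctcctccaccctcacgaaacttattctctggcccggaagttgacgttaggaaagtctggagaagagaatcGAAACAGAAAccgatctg
Gbp3: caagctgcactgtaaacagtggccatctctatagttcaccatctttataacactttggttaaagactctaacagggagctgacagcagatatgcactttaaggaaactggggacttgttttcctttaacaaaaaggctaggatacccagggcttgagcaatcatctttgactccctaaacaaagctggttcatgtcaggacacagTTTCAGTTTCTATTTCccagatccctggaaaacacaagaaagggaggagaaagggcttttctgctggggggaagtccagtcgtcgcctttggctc

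Shorter stretches show that the element was found both in genes that fell by over 1 log2 unit (Isg15, Stat2 and Gbp2) and in genes that did not pass the test (Ifit1, Rsad2 and Ddx58). The windows below hold the matches of Isg15 (chr4:156200869-156200902, minus strand), Stat2 (chr10:128270270-128270291, plus), Gbp2 (chr3:142620598-142620619, plus), Ifit1 (chr19:34640779-34640819, plus), Rsad2 (chr12:26456557-26456578, minus) and Ddx58 (chr4:40239808-40239829, minus), with 6 flanking bases on each side and the matches in capitals. Isg15 holds 3 overlapping matches that begin 78 bases before the start site, and Ifit1 holds 2 that begin 104 bases before it.
Isg15: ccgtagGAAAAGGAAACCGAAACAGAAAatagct
Stat2: ccctggTTTCAGTTTCctttcc
Gbp2: ttttagTTTCACTTTCactgtc
Ifit1: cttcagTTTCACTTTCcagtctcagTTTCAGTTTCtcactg
Rsad2: tccaacTTTCATTTTCagaaaa
Ddx58: aggcagTTTCGATTTCctatgg
An ISRE was found in 11 of 16 genes with a window that were lower with EGF (68.8%) and in 3 of 8 of those that were not (37.5%). Other spacings of the element were not searched, and the difference between these shares was not tested. A match describes the letters of the window and not the binding of a factor.

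Most interferon response genes were lower in the EGF arrays. Of the 32 measured genes 22 fell, 1 rose and 9 did not pass the test, where 60.3% of all genes tested passed, 20.7% as falls and 39.7% as rises (limma, Benjamini-Hochberg adjusted p under 0.05 over all genes). At least 2-fold, 17 fell, against 7.42% of all genes, and 1 rose, against 6.25%. The median log2 fold change (EGF over untreated) was -1.06, and that of all genes was 0.17. The largest fall was that of Bst2, which encodes tetherin, a membrane protein that holds budding virus on the cell, and the gene that rose was Mx2, an antiviral GTPase. The 4 EGF arrays lay wholly below the 4 untreated arrays in 19 genes (19.9% of all genes) and wholly above them in 1 (34.0%), and the groups overlapped in 12. Over all genes 54.0% did not overlap. The median of all genes moved to 0.0083, -0.020 and -0.011 after a further quantile normalization, centring of each array and cyclic loess, so that changes near 0.17 have no settled direction. Under these scalings 24, 26 and 24 of the 32 genes fell, beside 24.8%, 27.8% and 27.3% of all genes, and 1 rose, beside 23.7%, 18.7% and 20.6%. In such bulk samples, fewer cells of a type and less RNA per cell cannot be told apart.

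**Figure D1:**
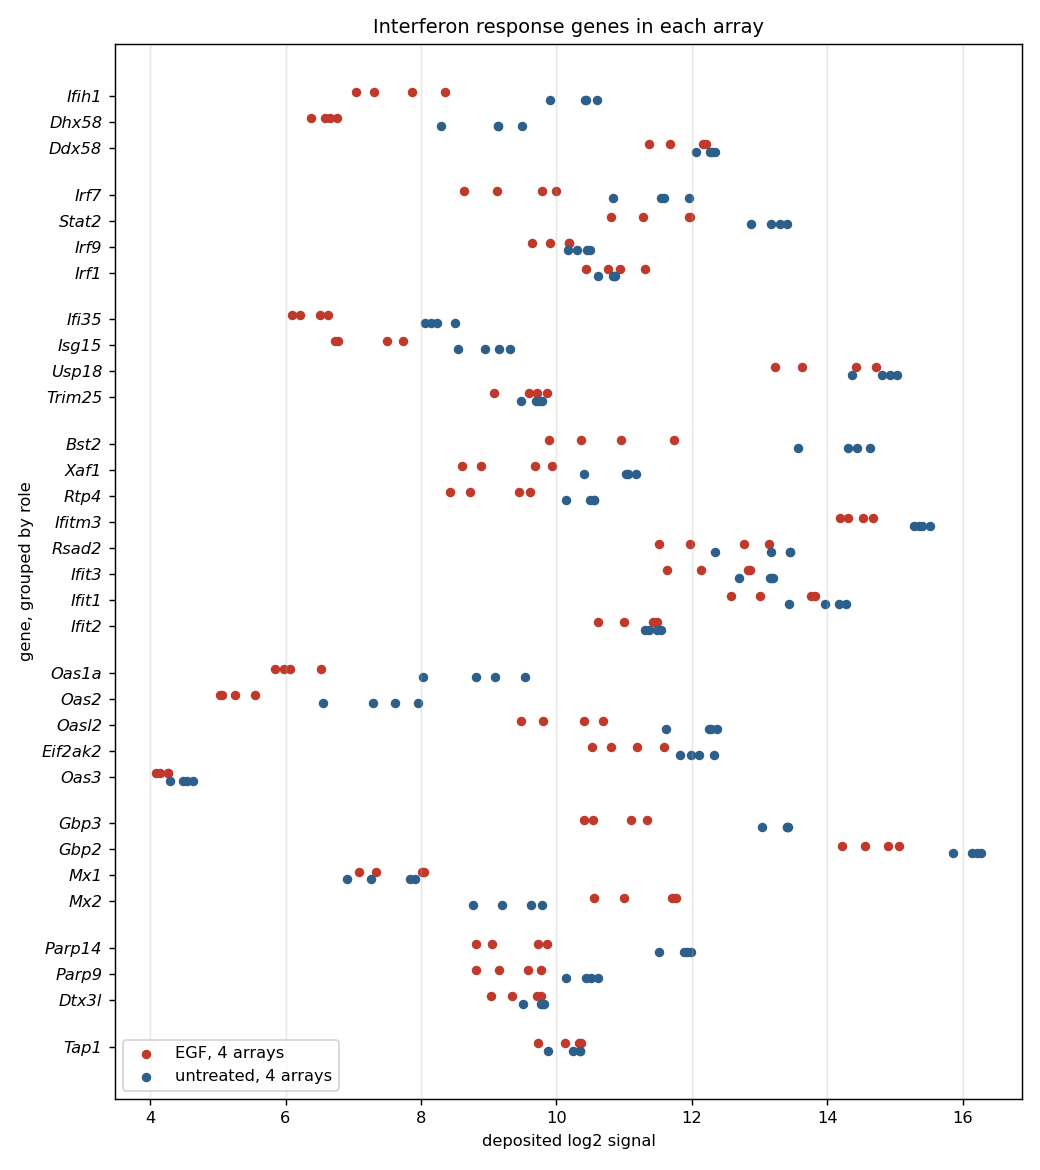
Deposited log2 signal (horizontal axis) of the 32 measured interferon response genes, grouped by role (vertical axis), with 1 point per array, EGF in red and untreated in blue. Bst2, Oas1a and Ifih1 stand well apart between the groups, Ifit2, Tap1 and Trim25 overlap, and Mx2 alone has all its EGF points to the right.

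Among the cytoplasmic RNA sensors, the signal of 2 of 3 fell, beside 20.7% of all genes. Ifih1, which encodes the long double-stranded RNA sensor MDA5, read 8.36, 7.30, 7.04 and 7.87 in EGF replicates 1 to 4, against 9.90, 10.42, 10.43 and 10.60 in untreated replicates 1 to 4 (log2 signal). All EGF arrays lay below all untreated arrays, by a log2 fold change of -2.69 ± 0.27 (SE, limma adjusted p = 1.07e-05). Dhx58, which encodes LGP2, a modulator of the other sensors, was at 6.76, 6.58, 6.37 and 6.66 with EGF and at 8.30, 9.14, 9.14 and 9.49 untreated. It fell by 2.43 ± 0.21 (adjusted p = 4.89e-06), and its EGF arrays were close together while untreated replicate 1 was below the other untreated arrays. Ddx58, which encodes the sensor RIG-I, was bright in both groups, with 12.20, 11.67, 11.36 and 12.16 in EGF arrays and 12.06, 12.27, 12.34 and 12.30 in untreated arrays. EGF replicates 1 and 4 lay among the untreated values and replicates 2 and 3 below them. Its log2 fold change of -0.40 ± 0.17 did not pass with the deposited values (adjusted p = 0.0723) and passed under 3 other scalings (adjusted p = 0.0479, 0.018 and 0.0332) and without EGF replicate 1 or 4 (adjusted p = 0.0273 and 0.0366).

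Of the transcription factors 3 of 4 fell (20.7% of all genes). Irf7, the factor that amplifies type I interferon production and is itself induced by interferon, read 9.99, 9.12, 8.63 and 9.79 in the EGF arrays, against 10.83, 11.54, 11.58 and 11.96 in the untreated arrays. The groups did not overlap, and the gene fell by 2.10 ± 0.31 (adjusted p = 2.28e-04). Stat2, which encodes a subunit of ISGF3, was at 11.95, 11.28, 10.81 and 11.97 with EGF and 12.87, 13.17, 13.41 and 13.30 untreated, a log2 fold change of -1.69 ± 0.24 (adjusted p = 1.9e-04). Irf9, the DNA-binding partner in ISGF3, differed far less, with 9.98 ± 0.26 in EGF arrays and 10.36 ± 0.15 in untreated arrays (mean ± SD, n = 4 each). Its fall of 0.38 ± 0.13 passed (limma adjusted p = 0.0288), but the groups overlapped and the call was lost without EGF replicate 2 or 3 (adjusted p = 0.0639 and 0.0627) or without untreated replicate 3 or 4 (adjusted p = 0.0762 and 0.0679). Irf1, an early factor that interferon gamma and other cytokines induce, read 10.86 ± 0.37 with EGF and 10.79 ± 0.12 untreated (n = 4 each). Its log2 fold change was 0.07, with a 95% interval of -0.29 to 0.43, and its sign turned to -0.0825 without EGF replicate 4, to -0.12 after centring of each array and to -0.034 after cyclic loess.

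The ISG15 system and related regulators gave 3 falls among 4 genes (20.7% of all genes fell). Isg15 encodes a ubiquitin-like protein that is joined to other proteins during the interferon response. It was at 7.73, 6.78, 6.73 and 7.50 in the EGF arrays and 8.55, 9.31, 8.95 and 9.15 in the untreated arrays, with no overlap and a log2 fold change of -1.81 ± 0.24 (adjusted p = 1.08e-04). Ifi35, whose product binds other interferon-induced proteins, fell by 1.87 ± 0.13 (adjusted p = 9.03e-07), and its arrays ranged from 6.10 to 6.63 with EGF and from 8.06 to 8.50 untreated. Usp18 encodes the protease that removes ISG15 and also blocks signalling at IFNAR2. It was among the brightest of the 32 genes, with 14.72, 13.63, 13.23 and 14.42 in EGF arrays and 14.36, 14.81, 14.93 and 15.03 in untreated arrays. EGF replicates 1 and 4 exceeded untreated replicate 1, and replicates 2 and 3 were over 1 log2 unit below the brightest EGF array. The fall of 0.78 ± 0.30 passed narrowly (adjusted p = 0.0440) and the call was lost without EGF replicate 2 or 3 (adjusted p = 0.108 and 0.104) or without untreated replicate 2, 3 or 4 (adjusted p = 0.0826, 0.0942 and 0.0992). Trim25, the ubiquitin ligase that acts on RIG-I, read 9.56 ± 0.34 with EGF and 9.67 ± 0.14 untreated (n = 4 each) and had a log2 fold change of -0.11 (95% interval -0.45 to 0.23), which was 0.0475 without EGF replicate 3.

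Among 8 genes of other antiviral proteins 5 fell (20.7% of all genes), and the fall was far from even. Bst2 read 11.73, 10.36, 9.89 and 10.95 in the EGF arrays, against 13.57, 14.63, 14.31 and 14.44 in the untreated arrays. The highest EGF array was still below the lowest untreated array, and the gene fell by 3.51 ± 0.36 on the log2 scale (adjusted p = 1.61e-05), an 11.4-fold difference. Xaf1, whose product binds the apoptosis inhibitor XIAP, fell by 1.63 ± 0.29 and Rtp4, a chaperone of receptors that also restricts viruses, by 1.39 ± 0.24 (adjusted p = 7.27e-04 and 6.75e-04). Ifitm3, whose product stops viruses from fusing inside endosomes, was at 14.67, 14.31, 14.18 and 14.53 with EGF and at 15.28, 15.35, 15.39 and 15.52 untreated, a log2 fold change of -0.96 ± 0.11 (adjusted p = 2.85e-05). In these 4 genes the groups did not overlap, as in 54.0% of all genes.

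The IFIT genes, whose proteins bind viral RNA and hold back its translation, had the smallest log2 fold changes within this role. Ifit1 was at 13.81, 13.00, 12.57 and 13.76 in the EGF arrays and 13.43, 13.96, 14.17 and 14.27 in the untreated arrays. Ifit3 was at 12.86, 12.14, 11.63 and 12.82 with EGF and 12.69, 13.19, 13.17 and 13.15 untreated. In both, EGF replicates 1 and 4 stood above untreated replicate 1 and below the other untreated arrays, while EGF replicates 2 and 3 stood below all 4. Ifit3 fell by 0.69 ± 0.25 (adjusted p = 0.0396), a call that was lost without EGF replicate 2 or 3 (adjusted p = 0.0922 and 0.0776) or without untreated replicate 2, 3 or 4 (adjusted p = 0.0877, 0.0857 and 0.0804). Ifit1 had a log2 fold change of -0.67 ± 0.28 (adjusted p = 0.0625), which passed under 3 other scalings (adjusted p = 0.0224, 0.0266 and 0.0449) and without EGF replicate 1 or 4 or untreated replicate 1 (adjusted p = 0.029, 0.036 and 0.0293). Ifit2 had -0.29 ± 0.17 (adjusted p = 0.161), and passed after centring alone (-0.48, adjusted p = 0.0445). Rsad2, which encodes viperin, an enzyme that makes a chain terminator of viral RNA synthesis, had the same array pattern, with 13.14, 11.97, 11.51 and 12.77 in EGF arrays and 12.34, 13.16, 13.45 and 13.45 in untreated arrays. Its log2 fold change of -0.75 ± 0.36 did not pass (adjusted p = 0.0931), and passed without untreated replicate 1 (-1.01, adjusted p = 0.0318) or without EGF replicate 1 (-1.02, adjusted p = 0.0278).

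All 5 genes of the double-stranded RNA effectors fell (20.7% of all genes). None overlapped between the groups, where 54.0% of all genes did not overlap. The OAS enzymes make a second messenger that activates RNase L. Oas1a read 6.53, 6.06, 5.84 and 5.97 in the EGF arrays, against 8.03, 8.81, 9.09 and 9.53 in the untreated arrays. Oas2 was at 5.55, 5.25, 5.03 and 5.06 with EGF and 6.55, 7.29, 7.62 and 7.96 untreated. These had log2 fold changes of -2.77 ± 0.28 and -2.13 ± 0.26 (adjusted p = 1.28e-05 and 5.23e-05). In the EGF arrays Oas2 lay close to or below the median of all genes, which was 5.45 to 5.54 per array, so its fold can be understated. Oas1a lay above that median in each EGF array. Oasl2, an OAS-like protein, was at 10.68, 9.80, 9.48 and 10.40 with EGF and at 11.61, 12.25, 12.28 and 12.37 untreated, a log2 fold change of -2.04 ± 0.26 (adjusted p = 7.43e-05). Oas3 was below the lowest array median of 4.56 in both group means (4.19 ± 0.09 with EGF and 4.49 ± 0.14 untreated, SD, n = 4 each), so that its fall of 0.30 ± 0.08 (limma adjusted p = 0.0116) is of a dim signal. Eif2ak2 encodes PKR, the kinase that stops translation when it meets double-stranded RNA, and it fell by 1.04 ± 0.21 (adjusted p = 0.00171). Several of these genes have close paralogs next to them (Oas1, Ifit3 and Gbp families), and how far the clusters tell paralogs apart was not tested.

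The interferon-induced GTPases went both ways. Gbp2 and Gbp3, whose products coat intracellular pathogens and their vacuoles, fell without overlap. Gbp3 was at 11.34, 10.54, 10.40 and 11.10 in EGF arrays and at 13.04, 13.42, 13.41 and 13.41 in untreated arrays, a log2 fold change of -2.48 ± 0.20 (adjusted p = 2.17e-06). Gbp2 fell by 1.44 ± 0.17 (adjusted p = 4.75e-05) with EGF arrays between 14.21 and 15.06 and untreated arrays between 15.85 and 16.27. Mx2 read 11.76, 11.00, 10.56 and 11.70 with EGF, against 8.76, 9.20, 9.62 and 9.78 untreated. All EGF arrays were above all untreated arrays, and the gene rose by 1.92 ± 0.29 (adjusted p = 2.84e-04), or 3.77-fold, also in each scaling and with each array left out. Its neighbour Mx1, the GTPase that blocks influenza virus in mice with an intact gene, read 8.05, 7.34, 7.08 and 8.02 with EGF and 6.91, 7.26, 7.83 and 7.91 untreated. Its groups overlapped in part, with EGF replicates 1 and 4 above all untreated arrays and untreated replicate 1 below all EGF arrays, and it had a log2 fold change of 0.15 (95% interval -0.46 to 0.75) that turned to -0.0425 after centring of each array and to -0.0442 without untreated replicate 1. Many laboratory mouse strains carry defective Mx genes, and the strain is not given here.

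The ADP-ribosyltransferase genes split as well. Parp14, which acts in STAT-dependent transcription, was at 9.86, 9.05, 8.81 and 9.72 in EGF arrays and 11.52, 11.92, 11.88 and 11.99 in untreated arrays, and it fell by 2.47 ± 0.22 (adjusted p = 5.47e-06). Parp9 fell by 1.10 ± 0.19 (adjusted p = 7.81e-04), while its partner Dtx3l, a ubiquitin ligase that forms a complex with PARP9, had 9.47 ± 0.34 with EGF and 9.72 ± 0.14 untreated (mean ± SD, n = 4 each). The difference of -0.25 for Dtx3l did not pass (limma adjusted p = 0.176, 95% interval -0.59 to 0.09) and passed after centring alone (-0.44, adjusted p = 0.04). Tap1, a subunit of the peptide transporter that loads MHC class I, read 10.33, 10.13, 9.73 and 10.36 with EGF and 9.87, 10.25, 10.35 and 10.34 untreated. The groups overlapped, with EGF replicate 3 below and EGF replicate 4 just above all untreated arrays, and Tap1 had a log2 fold change of -0.07 (95% interval -0.41 to 0.28), which was 0.0708 without EGF replicate 3.

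**Figure D2:**
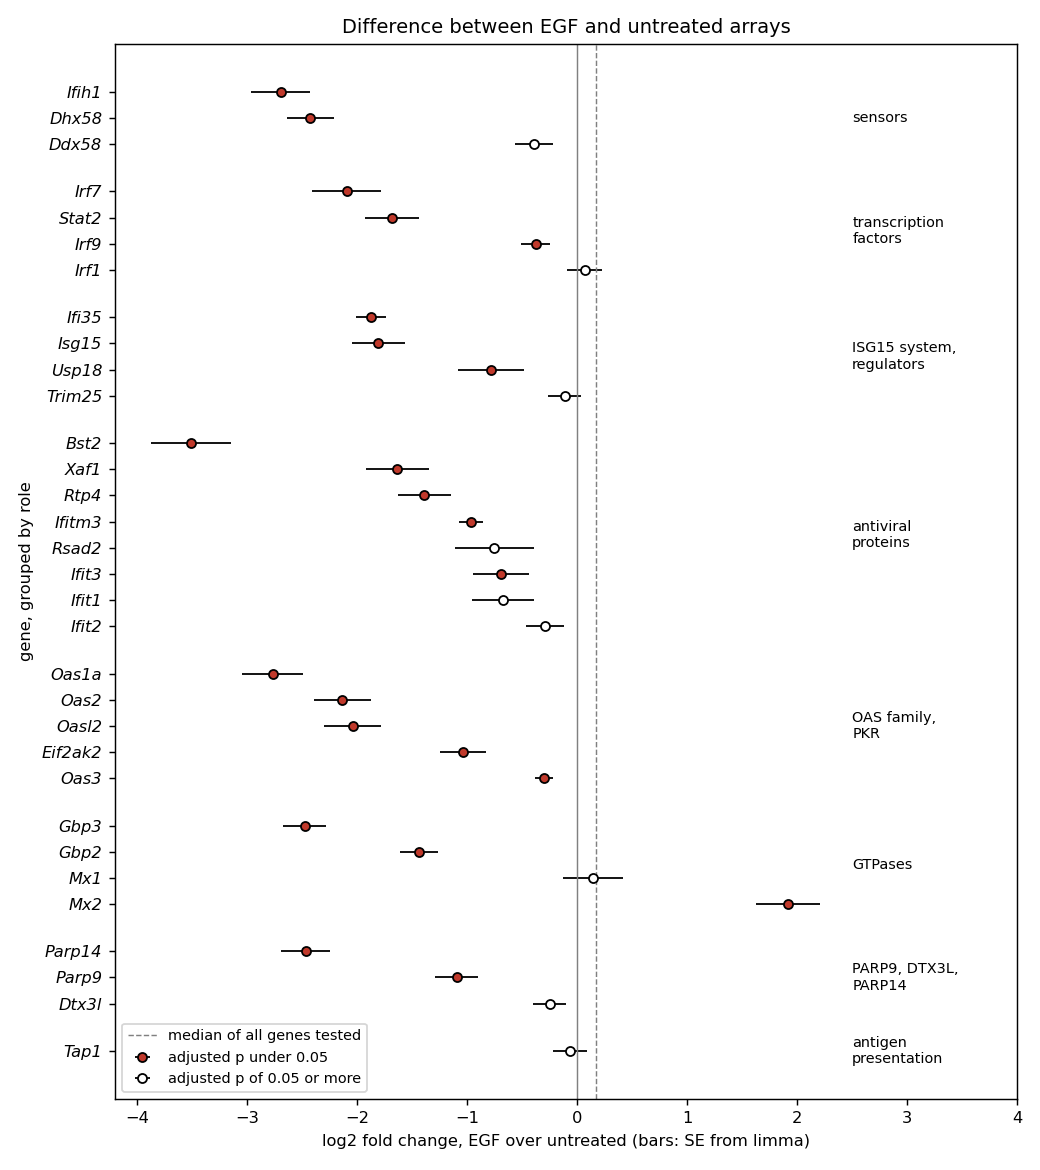
Log2 fold change of EGF over untreated (horizontal axis) for each of the 32 genes, grouped by role, with bars for the SE of limma. Filled points have an adjusted p under 0.05 and open points do not, and the dashed line is the median of all genes tested (0.17). Bst2 lies farthest to the left at -3.51 and Mx2 farthest to the right at 1.92.

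The EGF arrays differed among themselves in these genes, and nearly every gene did so in the same way. EGF replicates 1 and 4 were both above replicates 2 and 3 in 30 of the 32 genes, a relation that 15.9% of all genes showed. EGF replicate 3 was the lowest EGF array in 31 genes (24.5% of all genes) and EGF replicate 1 the highest in 29 (26.3%). Among the 8956 genes with a mean log2 signal above 8, these 2 shares were 36.6% and 30.4%. Of those genes 10.9% had replicates 1 and 4 both above replicates 2 and 3. The full order of replicates 1, 4, 2 and 3 from high to low was found in 26 genes, against 4.06% of all genes. The distance between EGF replicates 1 and 3 was 0.18 to 1.84 log2 units, with a median of 0.965. That median was 0.01 over all genes tested and 0.06 over genes with a mean above 8. The median deviation of the 32 genes from the EGF group mean was 0.45, -0.23, -0.50 and 0.27 in EGF replicates 1 to 4, where that of all genes was within 0.0075 of 0. In counts added after seeing the data, EGF replicate 3 was the lowest in 31, 31 and 30 genes after quantile normalization, centring and cyclic loess, while EGF replicate 1 was the highest in 24, 29 and 22. These genes share the same arrays, so their common order counts as 1 observation on 4 samples and was not tested.

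Among the untreated arrays, replicate 1 was the lowest in 31 of the 32 genes, as in 22.7% of all genes, with a median deviation of -0.33. Its distance to the other untreated arrays was large in several genes. Oas2 read 6.55 in untreated replicate 1 and 7.29 to 7.96 in the others, and Bst2 read 13.57 there and 14.31 to 14.63 in the others. The SD over 4 arrays had a median of 0.46 in the EGF group and 0.23 in the untreated group, against 0.12 and 0.11 over all genes, and it was larger with EGF in 28 of the 32 genes (58.3% of all genes). In 13 genes EGF replicate 1 was above untreated replicate 1, and in 30 genes EGF replicate 3 was below all untreated arrays. Shares of all genes were not taken for these counts, so they cannot be set beside the background. The number of genes that fell was 25 without EGF replicate 1 (20.1% of all genes) and 24 without EGF replicate 4 (19.7%). It was 24 without untreated replicate 1 (19.9%) and 19 to 20 without 1 of the other arrays (19.6% to 20.4%).

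**Figure D3:**
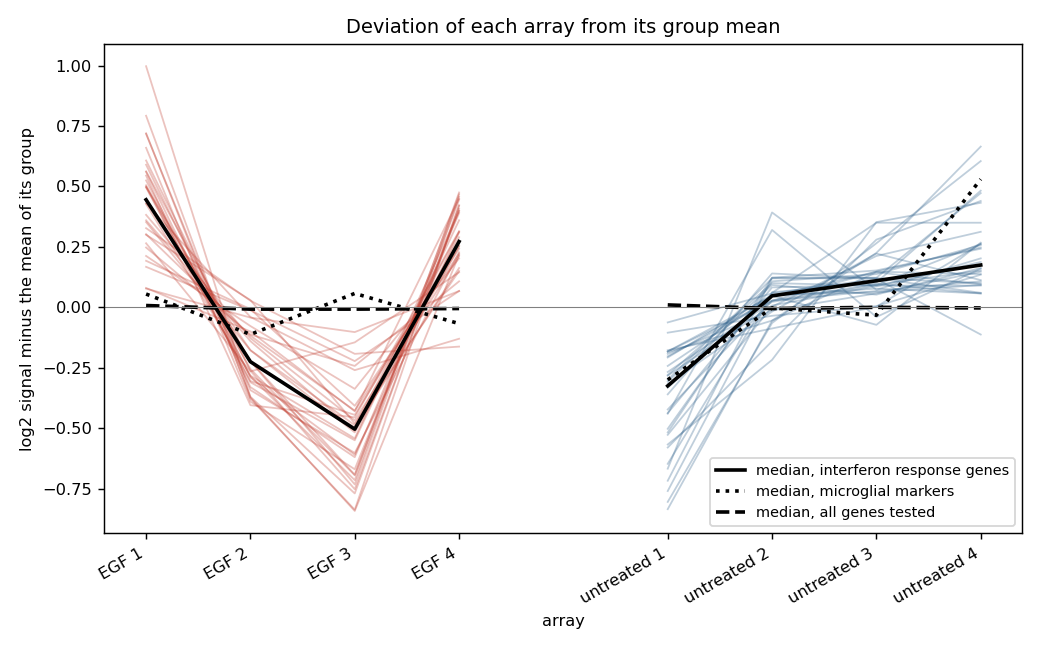
Log2 signal minus the mean of its own group (vertical axis) in each array (horizontal axis), with a thin line for each of the 32 genes, red for EGF and blue for untreated. The thick solid line is their median, which runs 0.45, -0.23, -0.50 and 0.27 over the EGF arrays. The dotted line is the median of 17 microglial markers and the dashed line that of all genes tested.

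Upstream of these genes, the receptor subunits did not move together. Ifngr1, the ligand-binding subunit of the interferon gamma receptor, was at 10.33, 10.27, 10.17 and 10.16 in EGF arrays and at 12.19, 12.18, 12.35 and 12.30 in untreated arrays. It fell by 2.02 ± 0.07 (adjusted p = 5.0e-09), and its EGF arrays lay within 0.17 of each other. Ifnar2 fell by 0.69 ± 0.07 and Ifngr2 by 0.44 ± 0.07 (adjusted p = 1.83e-05 and 3.9e-04). Ifnar1 had a log2 fold change of 0.21 ± 0.06 (adjusted p = 0.01), close to the shift of all genes, and did not pass under 3 other scalings (0.12, 0.02 and 0.09). Il10rb, a subunit shared by the lambda interferon and interleukin-10 receptors, fell by 1.24 ± 0.08 (adjusted p = 4.43e-07), and Ifnlr1, its partner, was dim in both groups (4.40 ± 0.09 with EGF and 4.38 ± 0.05 untreated, SD, n = 4 each). The kinase gene Jak1 had 12.21 ± 0.04 and 12.15 ± 0.03 (n = 4 each) in EGF and untreated arrays, Jak2 fell by 0.32 ± 0.07 (limma adjusted p = 0.00436), and Tyk2 had 0.25 ± 0.10, a call that was lost after centring and cyclic loess. Stat3 rose by 0.39 ± 0.06, also under the other scalings (0.18, 0.20 and 0.27).

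The inhibitors of the pathway differed from each other. The phosphatase genes Ptpn6 and Ptpn2, whose products dephosphorylate JAKs and STATs, fell by 3.04 ± 0.17 and 0.77 ± 0.09 (adjusted p = 1.92e-07 and 3.05e-05). Ptpn6, which is expressed chiefly in blood-derived cells, was at 5.55, 5.22, 5.27 and 5.37 with EGF and 7.94, 8.30, 8.44 and 8.90 untreated. Socs1 (0.04 ± 0.06) and Pias1 (-0.06 ± 0.06) did not pass, though Pias1 passed as lower after centring and cyclic loess (-0.25 and -0.17), and Socs3 had 0.41 ± 0.11, a call that was lost after centring and cyclic loess. The interferon genes themselves, Ifnb1, Ifna2, Ifna4, Ifng, Ifnk, Ifne and Ifnl2, had means of 3.56 to 4.94 in all groups, near or below the medians of the arrays (4.56 to 4.82), and none but Ifnk differed the same way past the threshold under every scaling. Ifnk was 4.12, 4.16, 4.51 and 3.80 with EGF and 3.45, 3.62, 3.75 and 3.40 untreated, a rise of 0.59 ± 0.14 in a dim signal. In all, of 22 measured genes of this list 7 fell (20.7% of all genes), 7 rose (39.7%) and 8 did not pass. After quantile normalization, centring and cyclic loess 10, 9 and 11 of the 22 fell (24.8%, 27.8% and 27.3% of all genes) and 4, 2 and 2 rose (23.7%, 18.7% and 20.6% of all genes).

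Interferon-stimulated genes outside the named set were mostly lower as well. Of 56 measured further type I genes 45 fell (20.7% of all genes) and 0 rose (39.7%). The other 11 were short of the threshold, and the median log2 fold change was -1.23. After the 3 other scalings 48, 49 and 49 fell (24.8%, 27.8% and 27.3% of all genes). Casp4, an inflammatory caspase that senses lipopolysaccharide in mice under the name caspase-11, was at 6.95, 6.35, 6.14 and 6.65 in EGF arrays and 11.13, 11.48, 11.52 and 11.76 in untreated arrays. It fell by 4.95 ± 0.18 (adjusted p = 7.38e-09). Lgals3bp and Lgals9, a galectin-binding glycoprotein and a galectin, fell by 3.63 ± 0.25 and 3.49 ± 0.38 (adjusted p = 8.36e-07 and 2.2e-05). EGF replicates 1 and 4 were both above replicates 2 and 3 in 47 of the 56 genes (83.9%), beside 15.9% of all genes. EGF replicate 3 was the lowest EGF array in 43 (24.5% of all genes). The same relation of replicates 1 and 4 to 2 and 3 was found in 68.8% of the MHC class I list, 55.6% of the interferon gamma list, 36.4% of the sensors and adaptors and 22.7% of the ligands, receptors and signalling genes. All these genes were read on the same 4 EGF arrays, so this order is not a separate observation from that of the 32 genes. Sensors, adaptors and induction factors numbered 22, with 17 that fell (20.7% of all genes), 2 that rose (39.7%) and a median of -0.515. The DNA-binding Ifi204, the Z-nucleic acid sensor Zbp1 and the single-stranded RNA receptor Tlr7 fell, with log2 fold changes of -3.95 ± 0.28, -3.42 ± 0.18 and -2.95 ± 0.18, and Ticam1, the adaptor of TLR3, rose by 1.02 ± 0.10 (adjusted p = 8.26e-06).

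Beside Tap1, 16 other genes of MHC class I presentation and the immunoproteasome were measured. Of these 15 fell (20.7% of all genes) and 1 rose (39.7%), with a median of -1.40. H2-Q4, H2-D1 and Erap1, the peptidase that trims peptides for MHC class I, fell, with log2 fold changes of -2.47 ± 0.20, -2.25 ± 0.13 and -2.14 ± 0.08 (adjusted p = 2.75e-06, 2.11e-07 and 6.13e-09). The gene that rose was Canx, a general chaperone of the endoplasmic reticulum (0.37 ± 0.05), and its call was lost after quantile normalization (0.16, adjusted p = 0.0721). Interferon gamma GTPases and MHC class II genes numbered 18, with 14 that fell (20.7% of all genes), 1 that rose (39.7%) and a median of -1.22. Icam1, an adhesion molecule, the chemokine Cxcl9 and Gbp11 fell, with log2 fold changes of -3.56 ± 0.15, -2.47 ± 0.21 and -2.41 ± 0.22. The gene that rose, Ido1, was dim (4.15 with EGF and 3.90 untreated) and its call was lost under the 3 other scalings. The class I genes of the mouse are a family of near-identical copies, and their clusters may share signal.

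**Figure D4:**
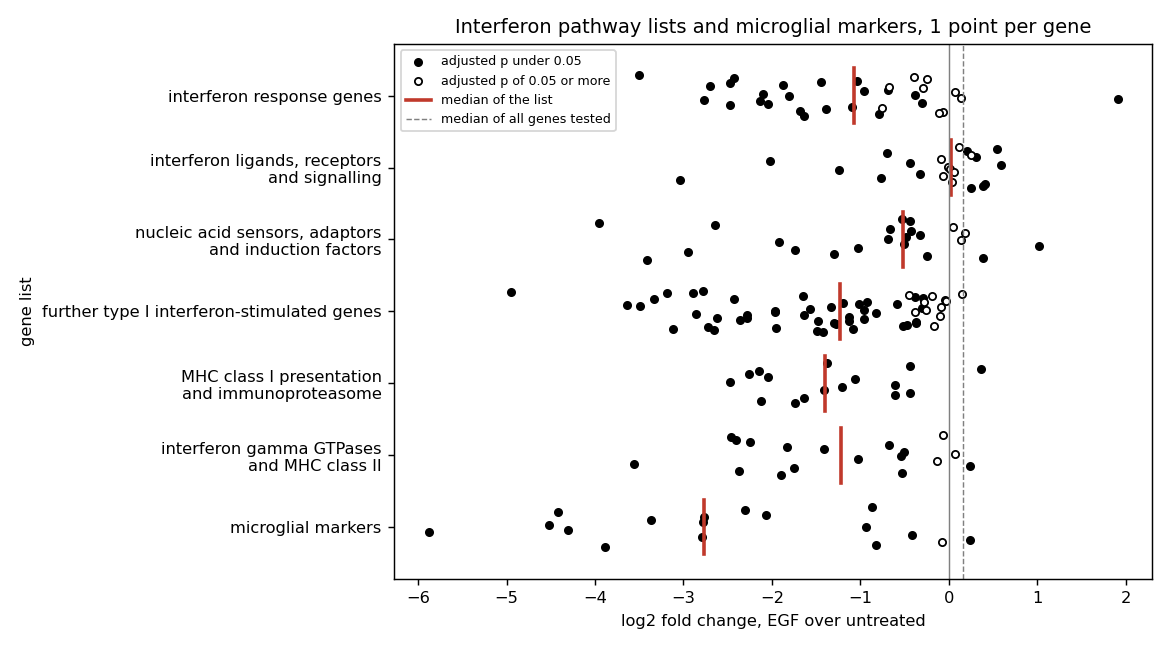
Log2 fold change of EGF over untreated (horizontal axis) with 1 point per gene for the interferon response genes, 5 lists of pathway genes that hold none of them, and microglial markers (vertical axis). Red bars are list medians, -1.06 for the interferon response genes, -1.23 for further type I genes, 0.03 for ligands, receptors and signalling and -2.77 for microglial markers.

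Lists of markers of other cells differed between the groups to unlike degrees, where 20.7% of all genes fell and 39.7% rose. Among 17 measured microglial markers, 15 fell (list median -2.77), Siglech rose by 0.24 and Tmem119 missed the threshold, and their mean log2 signal was 5.79 to 6.10 in EGF arrays and 8.05 to 8.78 in untreated arrays. Those with the largest change were Lyz2, Fcer1g and C1qb, a lysozyme, an Fc receptor subunit and a complement subunit, with log2 fold changes of -5.88 ± 0.25, -4.52 ± 0.29 and -4.42 ± 0.29. Csf1r, Cx3cr1 and Ptprc averaged 5.58, 5.20 and 5.04 with EGF and 8.95, 7.98 and 7.83 untreated, while P2ry12 was dim in both groups (4.03 with EGF and 4.45 untreated) and Tmem119 lay between 4.75 and 5.10 in all arrays. Among the microglial markers, EGF replicates 1 and 4 were both above replicates 2 and 3 in 4 of 17 (23.5%), beside 15.9% of all genes. In 8 of the 17 the EGF mean was below 5.54, the highest median of all genes among the EGF arrays. Whether dim signals hid an order of arrays was not tested. The median deviations of the 17 markers were 0.06, -0.11, 0.06 and -0.07 in EGF replicates 1 to 4. In the untreated group they were lowest in replicate 1 in 11 of 17 genes, with deviations of -0.30, -0.0025, -0.03 and 0.53. Of 16 multiciliated ependymal markers all fell (median -4.97), with means of 5.67 to 5.76 in EGF arrays and 10.6 to 11.1 in untreated arrays. In the EGF arrays those markers of the labelled cell type lay near the median of all genes. They were lowest in untreated replicate 1 in 12 of 16 genes. Neuroblast and neuron markers (9 of 10 fell) were lowest there in 8 of 10. The 8 measured markers of T, NK, B and plasmacytoid cells averaged 3.94 to 4.28 in all arrays, below every array median. Of these dim markers 0 fell and 5 rose. Of 12 astrocyte and radial glia markers 4 fell and 8 rose, and of fibroblast and mural markers 7 of 8 fell. Of 8 endothelial markers 2 fell and 4 rose, and of 7 oligodendrocyte lineage markers 1 fell and 3 rose. The endothelial and oligodendrocyte lists were thus near the shares of all genes. The part of these cell types in the lower signal of the interferon response genes was not tested.

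The authors' deposited table of differences for ctrl against gf holds 13 of the 32 genes, and in all 13 the gf average was lower, as in 62.2% of its 4136 rows. That table lists only differences of at least 1 on the log2 scale with a p-value under 0.05. Of the 18 genes that passed here with at least a 2-fold change, 10 are in it. Mx2, the gene that rose here, is not listed there. In the authors' deposited table Ifit1 had 8.37 in gf and 11.12 in ctrl, a difference of -2.75, and Rtp4 had 7.36 in gf and 10.33 in ctrl. For Bst2 the authors' deposited table gives 12.60 in gf and 14.61 in ctrl, and for Irf9 7.53 in gf and 8.76 in ctrl. The averages are not those of the arrays used here. In the authors' deposited table the gf average fell inside the range of the 4 EGF arrays for 2 of the 13 genes (tolerance 0.01). The gf average of the authors' deposited table lay below all 4 for 11, with Ifit2, lower by 0.01, in both counts. For Bst2 it lay above all 4. The ctrl average of the authors' deposited table lay inside the range of the 4 untreated arrays for 3 and below all 4 for 9. Over all its rows 17.9% of gf and 16.1% of ctrl averages lay inside the range (tolerance 0.01), with the same sign of the difference as the arrays in 85.0%. No source at hand says which samples or scaling the authors' deposited table rests on, nor what gf stands for. Its false discovery rates for the 13 genes ran from 0.0206 to 0.186, with 3 under 0.05.

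**Figure D5:**
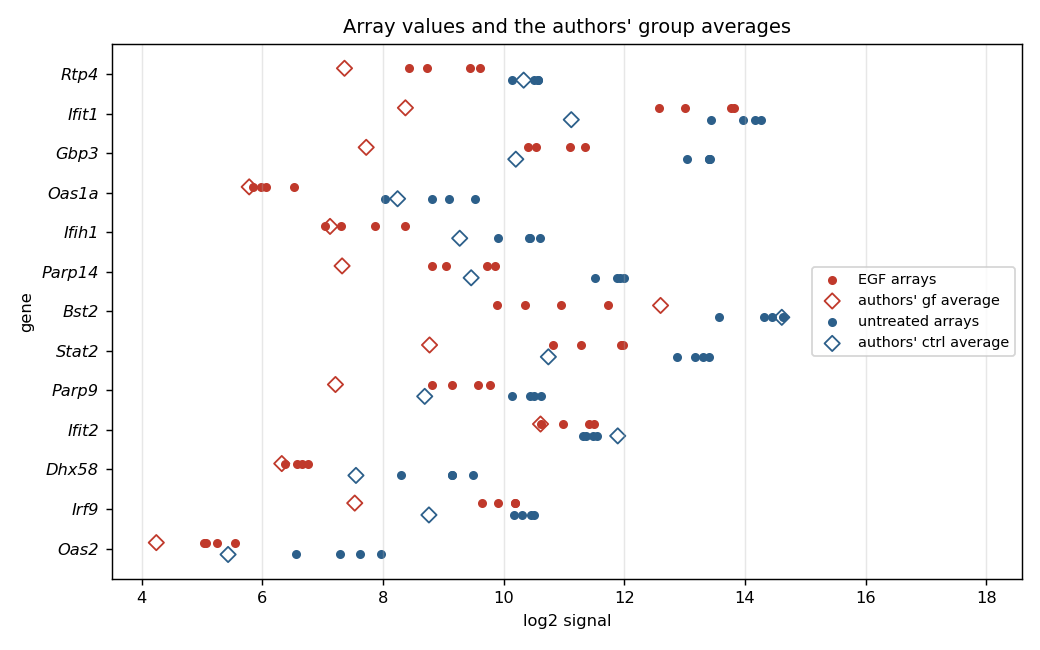
Log2 signal (horizontal axis) of the 13 interferon response genes in the authors' deposited table (vertical axis), with points for the EGF arrays (red) and untreated arrays (blue) and open diamonds for the authors' gf (red) and ctrl (blue) averages. For Ifit1 both diamonds, at 8.37 and 11.12, lie left of all 8 arrays.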

How the data were processed

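The authors deposited a table of log2 signals per transcript cluster for the 8 arrays; per the submitters' processing notes the tools were RMA, affy and limma, with no role or version stated. The values and the other table's header show a log2 scale, and the centring is unknown, with array medians from 4.56 to 4.82. Per the file headers, the other table lists, for ctrl and gf, the authors' averages on the log2 scale with their p-value and FDR.

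Clusters were named from the platform annotation, updated through RefSeq (GRCm38.p6, names and promoters only). Of 65956 clusters 31292 had 1 gene, giving 30738 genes by the brightest cluster (Irf1 had 2). The values were fitted with limma 3.58.1 (R 4.3.3; lmFit, eBayes, two-sided, Benjamini-Hochberg over all genes), EGF against untreated, with no filter. Steps were tested on simulated data. Alternatives were 3 scalings, a filter on dim clusters, cluster means, array weights, a trended robust fit, a replicate block, stricter thresholds and leaving out each array. All measured set genes are named, and of each pathway list the receptor and signalling genes, and up to 3 with the largest change (likewise of the microglial markers). Ticam1, Canx, Ido1, Csf1r, Cx3cr1, Ptprc, P2ry12, Tmem119 and Siglech were named after their values were seen. Members and lists were chosen with earlier results of these data known. Precision is limited by having 4 arrays a group. Tables were handled with Python 3.11.15 and pandas 2.3.3.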

Additional observations from a re-analysis of the deposited data

Results flagged for a closer look

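In 6 of the 32 genes, untreated replicate 1 lay below the other 3 untreated arrays, with a gap that exceeded Dixon's critical share of the range of the group. The log2 signal there was 10.61 for Irf1, 12.69 for Ifit3, 10.14 for Rtp4, 11.61 for Oasl2, 13.04 for Gbp3 and 9.51 for Dtx3l. The gap is relative to the range, and it can be small on the log2 scale. The other 3 untreated arrays read 10.84 to 10.87 for Irf1 and 9.77 to 9.81 for Dtx3l. A wider gap, as for Bst2 (13.57 against 14.31 to 14.63), was not flagged. No EGF array of the 32 genes was set apart in this way. Of the other genes examined, 6 had such an array: EGF replicate 2 in Ifnb1 (4.50), untreated replicate 3 in Tyk2 (7.52), untreated replicate 1 in Socs1 (5.93), untreated replicate 4 in Canx (15.58) and in the endothelial marker Kdr (6.21), and untreated replicate 2 in the neuronal marker Stmn2 (11.94). The check covered 99 genes, those named in the text and those of largest change in each marker list, and not every gene of the lists. It found 12 such arrays in 198 groups of 4. Chance gives about 1 in 20 groups, and the genes share their arrays, so these are not separate observations.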

How the results depend on the processing

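Of 511 pairs of a gene and an alternative setting, 472 kept the direction and the side of the threshold, 17 lost the call, 15 gained it and 7 changed sign. These settings leave out the stricter thresholds, and under them 20 of the 32 genes kept direction and call. The sign changed, with neither value past the threshold, for Irf1 after centring (-0.12), after cyclic loess (-0.034) and without EGF replicate 4 (-0.0825), for Mx1 after centring (-0.0425) and without untreated replicate 1 (-0.0442), and without EGF replicate 3 for Trim25 (0.0475) and Tap1 (0.0708), and the cause was not tested. With each array left out in turn, the log2 fold change was -0.0825 to 0.211 for Irf1, -0.213 to 0.0475 for Trim25, -0.0442 to 0.326 for Mx1 and -0.176 to 0.0708 for Tap1. In these fits 19 to 25 genes fell (19.6% to 20.4% of all genes) and 1 rose (33.9% to 40.6%). The median log2 fold change of the 32 genes was -1.23 to -0.902. At 1.5-fold (treat) 16 fell (8.74% of all genes) and at an adjusted p under 0.01, 18 (17.9%). Nothing states that the replicate numbers pair the samples. Deviations of same-numbered arrays correlated at -0.084, -0.0032, -0.054 and -0.026, and no EGF array correlated best with the untreated array of its own number. With 4 arrays a group, these correlations cannot show whether same-numbered samples were prepared together. With the replicate number as a block 19 genes fell (19.9% of all genes) and 1 rose (36.9%), without calls for Irf9, Usp18 and Ifit3 (limma adjusted p = 0.0505, 0.059 and 0.0564). The counts of genes by the order of arrays under 3 scalings were added after seeing the data. Dim signals limit Oas3, Oas2 and the interferon genes.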
